A study of Mus musculus with 2 samples.

Results

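Transcripts of 10 genes of the insulin-like growth factor (IGF) system were followed in adrenal glands of young mice: the ligand gene Igf1, the receptor genes Igf1r and Insr, and the binding protein genes Igfbp1 to Igfbp7. They were taken by gene symbol from 55536 annotated genes, and all 10 genes and their 36 annotated transcripts had an entry in each library. Total RNA was sequenced in 2 libraries of adrenal gland tissue from 14-day-old male B6CASTF1/J mice, hybrids of the inbred strains C57BL/6J and CAST/EiJ. Both belong to 1 group, untreated as far as the labels say, as biological replicates 1 and 2, and were made from 300 ng of RNA with a directional kit and ERCC spike-ins, RNAs of known amount added to each sample. No contrast between conditions exists, so values are levels and differences between these 2 libraries, with no p-value. The labels place both tissue samples under 1 donor record, and they name pools as "3x Males" with numbers that are alike in one field and unlike in another, so whether the SD covers different animals is not known.

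IGF-1 is a growth hormone dependent peptide that is made in quantity by the liver and locally by many other tissues. It acts through the tyrosine kinase receptor encoded by Igf1r, while the closely related receptor encoded by Insr responds to insulin and, in one splice form, also to IGF-2. The binding proteins carry IGFs in blood and in the spaces between cells, lengthen their life and hold them back from the receptor, and proteases release the peptide. IGF signals are known to sustain growth and steroid output of the adrenal cortex.

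The libraries held 36260745 (replicate 2) and 32963248 (replicate 1) expected counts. Values are TPM, a transcript level corrected for gene length and depth, from the RSEM tables deposited by the authors unless kallisto, their second quantification, is named. The tissue label was checked on adrenal markers, of which all 6 cortex markers and all 4 chromaffin genes were detected in both libraries, with summed levels of 4748 and 827.6 TPM in replicate 2, and 4298 and 850.0 TPM in replicate 1. The libraries stood apart in transcripts of other tissues. All 10 hepatocyte markers were over 2-fold higher in replicate 2, with a summed level of 5698 TPM in replicate 2 against 342.0 TPM in replicate 1, a 16.7-fold ratio, led by Alb and Ahsg. All 7 lymphocyte and lymph node markers were higher in replicate 1, at a summed 9.05 TPM in replicate 2 against 147.6 TPM in replicate 1, and Glycam1 was at 0 in replicate 2. All 5 adipocyte markers were detected at a summed 2845 TPM in replicate 2 against 2803 TPM in replicate 1, and none of 5 kidney markers was. In bulk tissue, fewer cells of a type and less RNA per cell cannot be told apart.

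Igfbp7 was the most abundant of the 10 genes and Igfbp1 the least abundant, with a wide middle field in between. In order of mean level the genes were Igfbp7, Igfbp4, Insr, Igf1r, Igfbp3, Igfbp5, Igf1, Igfbp6, Igfbp2 and Igfbp1. Of the 9 neighbouring pairs in this order, 2 were apart both in their ranges over the libraries and in their ratio within libraries, Igfbp7 over Igfbp4 and Insr over Igf1r. In the other 7 pairs the ranges overlapped. Among these, Igfbp2 still exceeded Igfbp1 within each library, by a log2 ratio of 1.42 ± 0.082. With kallisto Igf1 came 4th and Igf1r 6th. A level of at least 1 TPM in both libraries was found for 9 of the 10 genes, the exception being Igfbp1 in replicate 1. Of all 22015 nuclear protein-coding genes, 54.2% reached this level in both libraries. Together the 10 genes took 0.158% of nuclear protein-coding TPM in replicate 2 and 0.137% in replicate 1.

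**Figure D1:**
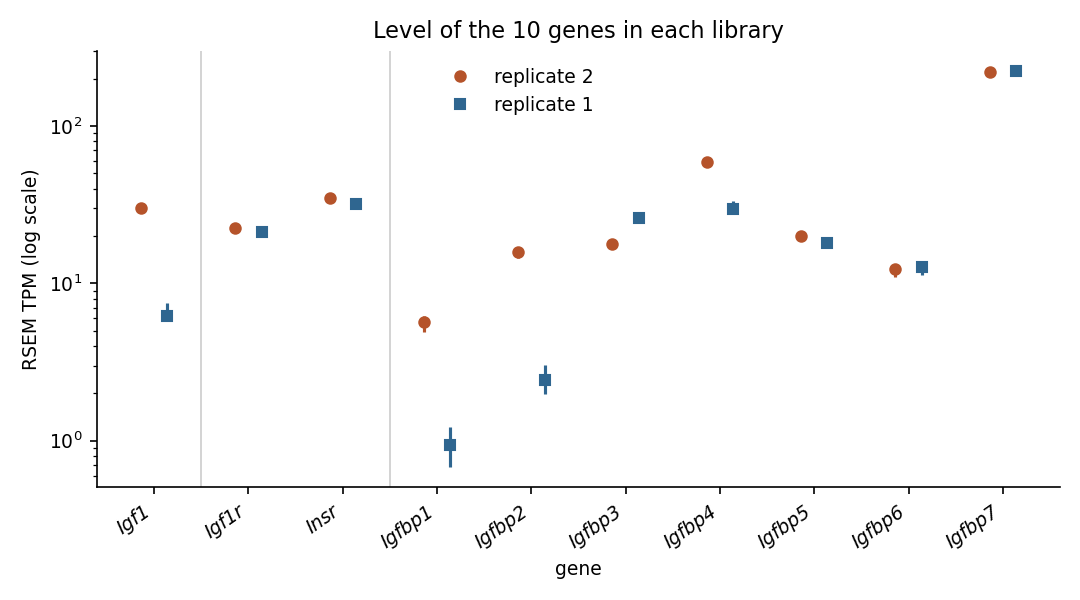
RSEM TPM on a log axis of the ligand, receptor and binding protein genes in replicate 2 (circles) and replicate 1 (squares), with the credibility bounds deposited by the authors as vertical lines. Igfbp7 stands near 223.0 TPM in both libraries, while Igf1, Igfbp1, Igfbp2 and Igfbp4 are visibly higher in replicate 2.

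Igf1, the ligand gene, differed several-fold between the libraries. It stood at 30.25 TPM (3105 expected counts) in replicate 2 against 6.24 TPM (948 counts) in replicate 1, which placed it 1720th and 7497th among 22015 nuclear protein-coding genes. The ratio, replicate 2 over replicate 1, was 4.85, with a 95% counting interval of 4.51 to 5.22 (exact binomial; such intervals cover counting error only), and 4.58 with kallisto. The ratio of expected counts, not adjusted for depth, was 3.28. TPM also divides by the effective length assigned to the gene, which was 2881 bases in replicate 2 and 4626 bases in replicate 1, since more of the replicate 2 signal was placed on short transcripts. The hepatocyte list was 16.7-fold higher in the same library, and its part in the Igf1 difference was not tested.

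Igf1 lies on chromosome 10 from 87858265 to 87937042, plus strand, on mm10 (GRCm38), and its transcripts begin in one of 2 leader exons that supply different start codons and signal peptides. The start sequences are shown because, in TPM, transcripts with the downstream leader together carried much of the difference between libraries. Igf1-201, from which the downstream sequence is taken, was itself at only 0.34 TPM in replicate 2 and 0.05 TPM in replicate 1. Capitals mark the coding bases of each leader exon, and lower case the next 15 bases of the shared exon.
Igf1-202, upstream leader, chr10:87859350-87859412: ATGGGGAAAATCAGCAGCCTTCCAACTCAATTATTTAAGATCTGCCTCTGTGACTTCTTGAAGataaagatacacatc
Igf1-201, downstream leader, chr10:87861371-87861385: ATGACCGCACCTGCAataaagatacacatc

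The 5 transcripts with the downstream leader summed to 14.05 TPM in replicate 2 against 0.86 TPM in replicate 1, and the 3 with the upstream leader to 16.2 TPM in replicate 2 against 5.37 TPM in replicate 1. The downstream leader therefore took 46.4% of Igf1 TPM in replicate 2 and 13.8% in replicate 1. In rodents, transcripts with this leader are known to be most abundant in liver and to respond to growth hormone. With kallisto its share was 72.5% in replicate 2 and 55.7% in replicate 1, so the direction was shared by both quantifications and the size was not. The folds between libraries were 16.3 (kallisto 5.96) for the downstream leader and 3.02 (kallisto 2.84) for the upstream leader. In expected counts the downstream transcripts held only 323.0 of the replicate 2 counts and 24.8 of the replicate 1 counts, since they are short, and that limits their precision. The upstream transcripts held 2782 counts in replicate 2 and 923.2 in replicate 1, so in counts most of the difference lay on them.

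Near its other end Igf1 has a 52-base exon whose inclusion shifts the reading frame and gives the E peptide called Eb in rodents. It is shown in capitals between 15 bases of its neighbours, with the junction that skips it. The summed share of the transcripts that include it differed by library and by quantification.
Igf1-203, exon included, chr10:87915298-87915349: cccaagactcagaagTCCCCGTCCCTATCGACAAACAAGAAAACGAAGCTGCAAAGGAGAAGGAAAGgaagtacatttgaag
Igf1-202, exon skipped: cccaagactcagaaggaagtacatttgaag

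Transcripts that include the exon took 50.0% of Igf1 TPM in replicate 2 and 27.6% in replicate 1. With kallisto these shares were 33.6% in replicate 2 and 19.1% in replicate 1. The longest transcript, Igf1-202 with 7052 bases, upstream leader and skipped exon, stood at 9.78 TPM in replicate 2 against 3.65 TPM in replicate 1, and it held 78.0% of the gene's counts in replicate 2 and 88.0% in replicate 1. Single short transcripts were not stable between quantifications. Igf1-206 took 28.8% of Igf1 TPM in replicate 2 and 0% in replicate 1 with RSEM, against 32.5% and 19.1% with kallisto. Igf1-203 took 21.2% in replicate 2 and 27.6% in replicate 1 with RSEM, but 1.14% and 0% with kallisto. Igf1-205, with the downstream leader and the exon skipped, took 16.5% in replicate 2 and 10.6% in replicate 1 with RSEM. With kallisto it took 35.7% and 34.8%.

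The receptor genes stood close together and close between libraries. Insr, the insulin receptor gene, was at 34.80 TPM in replicate 2 against 32.13 TPM in replicate 1 (33.5 ± 1.89, SD, n = 2). Igf1r, the IGF-1 receptor gene, was at 22.56 TPM in replicate 2 against 21.18 TPM in replicate 1 (21.9 ± 0.976). The ratios of replicate 2 over replicate 1 were 1.08 (1.05 to 1.12) for Insr and 1.07 (1.03 to 1.10) for Igf1r. Within libraries the log2 ratio of Igf1r to Insr was -0.61 ± 0.017, a 1.53-fold excess of Insr that exceeded its spread. Insr lies on chromosome 8 from 3122061 to 3279617, minus strand, and Igf1r on chromosome 7 from 67952827 to 68233668, plus strand.

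The excess of Insr rested on its short transcripts. Insr-201, the full-length coding transcript, stood at 17.81 TPM in replicate 2 against 16.61 TPM in replicate 1, and Igf1r-201, the only coding transcript of Igf1r, at 18.78 TPM in replicate 2 against 16.87 TPM in replicate 1. Between this pair the log2 ratio of Igf1r-201 to Insr-201 was 0.049 ± 0.038, a comparison chosen after the values were seen, and with kallisto it was 0.024 in replicate 2 and -0.010 in replicate 1, so the pair had no direction there. Insr-202, a 3-exon transcript typed as retained intron, took 22.4% of Insr TPM in replicate 2 and 25.9% in replicate 1. Insr-203, a 672-base coding fragment, took 22.3% in replicate 2 and 18.4% in replicate 1.

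Insr-203 is the annotated coding transcript that includes a 36-base exon, which keeps the frame and separates the B form of the receptor from the A form, the form with higher affinity for IGF-2. The sequences are shown as the receptor reads of the gland bear on both forms, and capitals mark the exon, which lies on the minus strand.
Insr-203, exon included, chr8:3181702-3181737: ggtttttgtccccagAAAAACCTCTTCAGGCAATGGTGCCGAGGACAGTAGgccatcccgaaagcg
Insr-201, exon skipped: ggtttttgtccccaggccatcccgaaagcg

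Of the summed TPM of Insr-203 and Insr-201, the transcript with the exon held 30.4% in replicate 2 and 26.3% in replicate 1 (28.3% ± 2.90, SD, n = 2). With kallisto these values were 32.7% and 31.6% (32.2% ± 0.806). The libraries differed by 4.10 percentage points with RSEM and 1.14 with kallisto. Depth limits this value, because Insr-203 held only 158.7 expected counts in replicate 2 and 111.5 in replicate 1, and because a fragment beside a full-length transcript is an indirect measure of inclusion. Insr-204, a retained intron transcript that covers the exon, took 4.14% and 3.95% of Insr TPM.

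Among the binding protein genes, Igfbp7 had the highest level in both libraries. Its protein, also called IGFBP-rP1 or angiomodulin, binds IGFs with low affinity and is a product of vascular endothelium in many tissues. Igfbp7 stood at 221.1 TPM in replicate 2 against 224.9 TPM in replicate 1 (223.0 ± 2.67, SD, n = 2), and ranked 162nd and 166th of the nuclear protein-coding genes. The ratio of the libraries was 0.983 (0.953 to 1.015) in TPM, so at this scaling the difference was within counting error. With kallisto it was 0.971, inside the interval. With RSEM counts scaled by TMM or DESeq2 size factors it was 1.03, and scaled by the spike-ins 0.931, all outside it. All 6 endothelial markers were detected, at a summed 204.1 TPM in replicate 2 against 232.9 TPM in replicate 1. Igfbp7 exceeded Igfbp4, next in order, by a log2 ratio of 2.41 ± 0.71, which is 5.30-fold. It lies on chromosome 5 from 77349240 to 77408041, minus strand, where its span overlaps Polr2b on the plus strand, at 17.1 TPM in replicate 2 against 17.9 TPM in replicate 1. Whether the counting used strand is not given in the sources used here, so reads of the overlap cannot be told apart.

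Igfbp4 encodes a binding protein that holds IGFs away from the receptor until the protease PAPP-A cleaves it. The gene stood at 59.16 TPM (4709 counts) in replicate 2 against 29.93 TPM (2148 counts) in replicate 1, with a ratio of 1.98 (1.88 to 2.08). The hepatocyte markers were higher in the same library, and their part in this difference was not tested. It lies on chromosome 11 from 99041244 to 99054392, plus strand. Its coding transcript Igfbp4-201 took 51.5% of the TPM in replicate 2 and 49.5% in replicate 1. Much of the rest was assigned to 3 processed transcripts without a coding frame, which took 39.0% in replicate 2 and 47.7% in replicate 1 with RSEM, and 57.2% and 56.6% with kallisto. In expected counts they held 11.9% in replicate 2 and 14.9% in replicate 1, so most of the gene's reads lay on coding transcripts. With kallisto the gene had 98.9 TPM in replicate 2 against 49.7 TPM in replicate 1, a ratio of 1.99.

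Igfbp3, Igfbp5 and Igfbp6 followed Igfbp4 among the binding protein genes by mean level, and only Igfbp3 differed between libraries by over 1.2-fold. Igfbp3, whose protein carries most IGF in adult blood, was the only binding protein gene over 1.2-fold lower in replicate 2, at 17.68 TPM in replicate 2 against 25.99 TPM in replicate 1, with a ratio of 0.680 (0.635 to 0.728). Mural and smooth muscle markers, 6 of 6 detected, were likewise lower in replicate 2, at a summed 80.0 TPM in replicate 2 against 115.9 TPM in replicate 1. So was the sum of the 9 fibroblast and capsule markers, at 436.9 TPM in replicate 2 against 537.0 TPM in replicate 1, although Lum and Rspo3 among them were slightly higher in replicate 2. The endothelial, lymphocyte and lymph node, macrophage and chromaffin sums were also lower in replicate 2. The lymphocyte and lymph node sum had the largest ratio, at 9.05 TPM in replicate 2 against 147.6 TPM in replicate 1. Sums of the hepatocyte, adrenal cortex, glia and adipocyte markers were higher in replicate 2. The part of any of these lists in the Igfbp3 difference was not tested. Igfbp5, which encodes a protein that attaches to extracellular matrix, stood at 20.04 TPM in replicate 2 against 18.14 TPM in replicate 1 (19.1 ± 1.34), a ratio of 1.10 (1.06 to 1.16). Igfbp6, whose protein prefers IGF-2, was at 12.33 TPM in replicate 2 against 12.77 TPM in replicate 1 (12.6 ± 0.311), a ratio of 0.966 (0.843 to 1.11) that was within counting error. Igfbp6 lies on chromosome 15 from 102144362 to 102149511, plus strand.

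Igfbp1 and Igfbp2 were the least abundant genes by mean level and had the highest ratios between libraries. Igfbp1, whose protein is released mainly by liver and is lowered by insulin, stood at 5.65 TPM (287 counts) in replicate 2 against 0.94 TPM (44 counts) in replicate 1, a ratio of 6.01 (4.36 to 8.46). Igfbp2, which encodes a binding protein of fetal tissues, brain and liver, stood at 15.77 TPM (676 counts) in replicate 2 against 2.42 TPM (92 counts) in replicate 1, a ratio of 6.52 (5.23 to 8.19). These ratios were 5.51 and 6.72 with kallisto. Within libraries the log2 ratio of Igfbp2 to Igfbp1 was 1.48 in replicate 2 and 1.36 in replicate 1, so the pair kept a similar proportion. As for Igf1, the hepatocyte list was 16.7-fold higher in replicate 2, and its part was not tested.

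Both low genes have an abundant binding protein gene as neighbour. Igfbp1 lies on chromosome 11 from 7197782 to 7202546, plus strand, and faces Igfbp3 (7206086 to 7213923, minus strand) across 3539 bases. Igfbp2 lies on chromosome 1 from 72824503 to 72852474, plus strand, and faces Igfbp5 (72857932 to 72874884, minus strand) across 5457 bases. The neighbours did not differ alike between the libraries. Igfbp3 exceeded Igfbp1 by 3.13-fold in replicate 2 and 27.6-fold in replicate 1, and Igfbp5 exceeded Igfbp2 by 1.27-fold in replicate 2 and 7.50-fold in replicate 1.

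The promoter of Igfbp1 is printed because of all the binding protein genes its control by insulin and by liver factors is best known. The letters are the 250 bases before the RefSeq start on GRCm38.p6, plus strand, with 2 matches in capitals. The first, CAAAACA, is the core of the insulin response element bound by FOXO factors, and begins 108 bases before the start. The second, AATCATTAAC, is a match to the HNF1 core on the other strand, where the core reads GTTAAT, any base and ATT, and begins 60 bases before the start.
Igfbp1 promoter, chr11:7197537-7197786: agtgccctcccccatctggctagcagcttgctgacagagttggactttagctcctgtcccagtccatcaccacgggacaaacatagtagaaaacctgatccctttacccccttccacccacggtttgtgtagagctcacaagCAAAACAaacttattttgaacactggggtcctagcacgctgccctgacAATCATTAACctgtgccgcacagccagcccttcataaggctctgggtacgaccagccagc

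Matches were sought on both strands in the same window of the 9 genes with a RefSeq promoter entry; Insr was not searched. CAAAACA matched in Igfbp1 alone among these and in 5.56% of 32851 promoter windows, and the HNF1 core likewise in Igfbp1 alone and in 0.371% of windows. TATAAA, the TATA box, matched in Igfbp4 and Igfbp6 and in 12.4% of windows. The motifs do not overlap in these windows as printed, and a match describes letters, not binding.

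The 7 binding protein genes summed to 351.7 TPM in replicate 2 against 315.1 TPM in replicate 1 (333.4 ± 25.9, SD, n = 2). Igfbp7 took 62.9% of this sum in replicate 2 and 71.4% in replicate 1 (67.1% ± 6.02). Without Igfbp7, Igfbp4 was the first of the remaining 6 in both libraries, with 45.3% in replicate 2 and 33.2% in replicate 1, followed in replicate 1 by Igfbp3 with 28.8%, which had 13.5% in replicate 2. Igfbp1 to Igfbp6, the high-affinity binding proteins, summed to 130.6 TPM in replicate 2 against 90.2 TPM in replicate 1. Set against Igf1 alone, this sum was 4.32-fold above it in replicate 2 and 14.5-fold above it in replicate 1. The log2 ratio was 2.98 ± 1.23. Igf2, the gene of the other IGF, was left out of this ratio, although its level exceeded that of Igf1 in both libraries. The ratio is therefore not one of binding protein transcripts to all IGF transcripts. Igf1r to Igf1 turned direction between libraries, with a log2 ratio of -0.42 in replicate 2 and 1.76 in replicate 1.

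**Figure D2:**
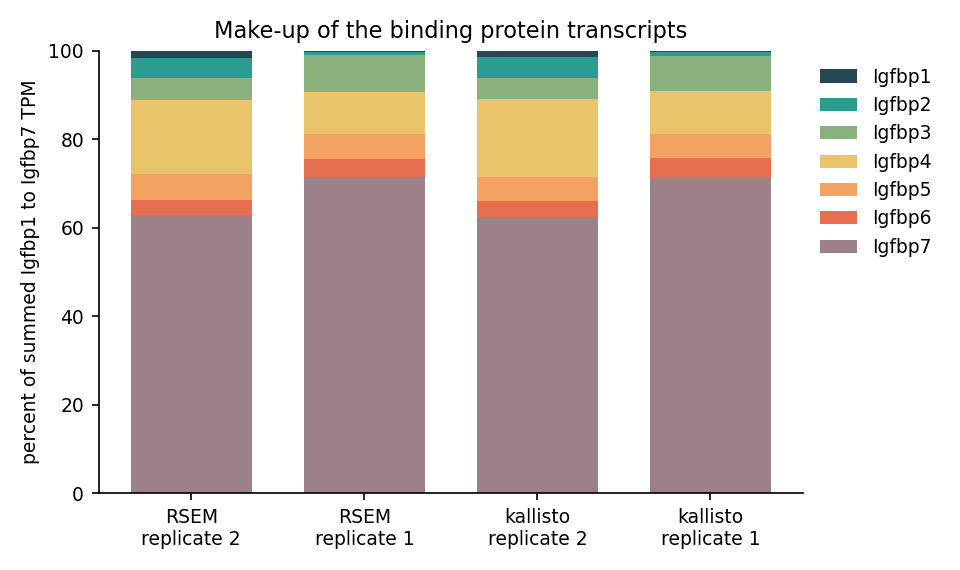
Percent of the summed TPM of Igfbp1 to Igfbp7 on each gene, in replicates 2 and 1 with RSEM and with kallisto. Igfbp7 makes up 62.9% in replicate 2 and 71.4% in replicate 1 with RSEM, and the Igfbp4, Igfbp2 and Igfbp1 segments are larger in replicate 2.

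The 10 genes were also set against all genes. Of them, 3 lay over 2-fold apart between the libraries, Igf1, Igfbp1 and Igfbp2, all higher in replicate 2. Among the 12535 nuclear protein-coding genes whose mean reached 1 TPM, 5.89% lay that far apart, 3.37% with replicate 2 higher and 2.52% with replicate 1 higher. With a minimum mean of 5 TPM, which leaves out Igfbp1, these were 2 of 9 genes, beside 2.75% of all genes, 2.27% with replicate 2 higher and 0.481% with replicate 1 higher. Igfbp4 lay just inside the 2-fold limit at 1.98. At the other end, 5 genes were within 1.2-fold, namely Igfbp5, Insr, Igf1r, Igfbp7 and Igfbp6. The median of all genes, an absolute log2 ratio of 0.16, was within 1.2-fold too, so this does not set the 5 genes apart. The median log2 ratio was 0.13 over the 10 genes and -0.07 over all genes, and the median absolute log2 ratio was 0.35 and 0.16.

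**Figure D3:**
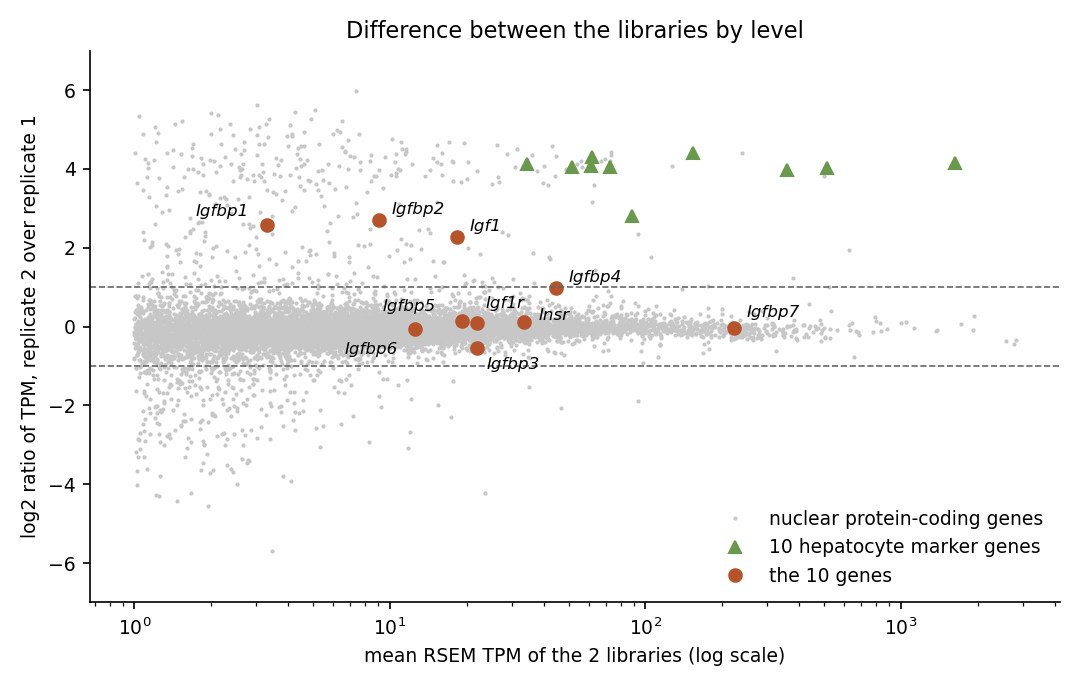
Log2 ratio of TPM, replicate 2 over replicate 1, against the mean TPM (log scale) of the nuclear protein-coding genes whose mean reached 1 TPM, with the 10 IGF system genes as circles and the 10 hepatocyte markers as triangles; dashed lines mark 2-fold, and genes at 0 in a library are not drawn. Igf1, Igfbp1 and Igfbp2 lie above the upper line and below all 10 hepatocyte markers, whose median log2 ratio is 4.07.

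**Figure D4:**
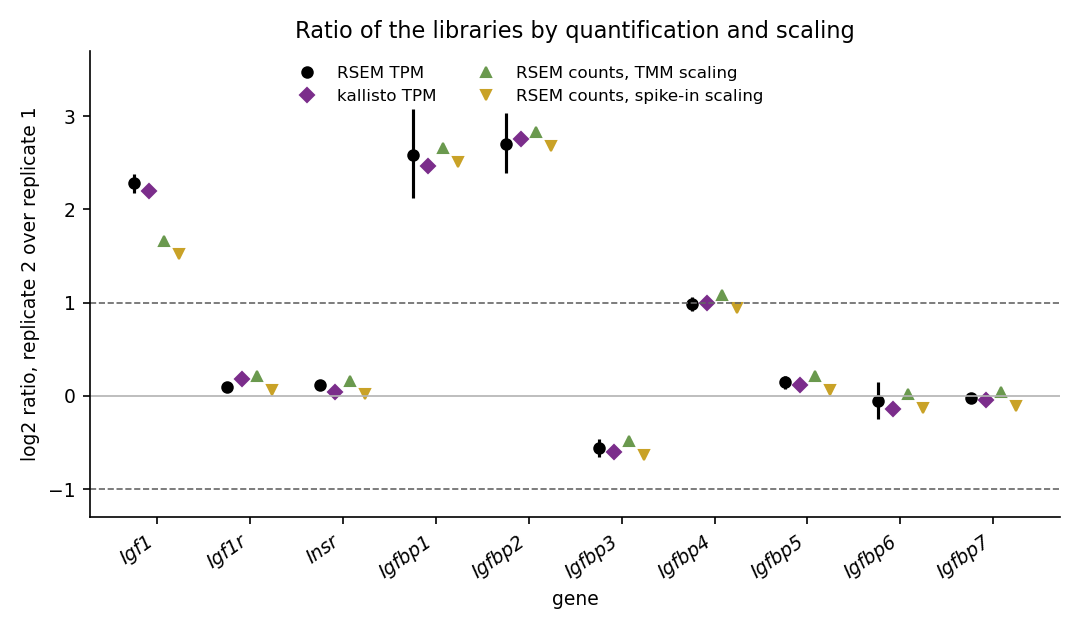
Log2 ratio, replicate 2 over replicate 1, of each gene with RSEM TPM (circles, with 95% counting intervals), kallisto TPM (diamonds) and RSEM counts scaled by TMM or by the spike-ins (triangles); dashed lines mark 2-fold. Igf1, Igfbp1 and Igfbp2 stay above 2-fold in all 4, Igfbp4 lies at the line, and count scaling places Igf1 lower than TPM does.

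The share of other pathway genes that differed over 2-fold was near that of all genes. Of 61 listed genes, 47 (77.0%) reached 1 TPM in both libraries, beside 54.2% of all nuclear protein-coding genes. Of the 49 whose mean reached 1 TPM, 2 lay over 2-fold apart, which is 4.08% beside 5.89% over all genes. Both were higher in replicate 2. Igfals, whose protein joins IGF and IGFBP-3 in the circulating complex and comes from liver, stood at 3.30 TPM (236 counts) in replicate 2 against 0.31 TPM (21 counts) in replicate 1, a 10.6-fold ratio. Cish, a growth hormone and cytokine induced feedback gene, stood at 17.15 TPM in replicate 2 against 5.47 TPM in replicate 1, a 3.14-fold ratio. The part of the hepatocyte transcripts in these differences was not tested. The median log2 ratio of the 49 genes was 0.0044.

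Of the other ligands, Igf2, the fetal growth factor gene, stood at 50.6 TPM in replicate 2 against 31.7 TPM in replicate 1, above Igf1 in both libraries. Ins1 and Ins2, the insulin genes, had 0 counts in both libraries, which allows up to 3 counts in each. Igf2r, the receptor that clears IGF-2, was at 20.4 TPM in replicate 2 against 17.4 TPM in replicate 1, below Igf1r in both libraries. Insrr, the insulin receptor related receptor, was at 0.19 TPM in replicate 2 against 0.59 TPM in replicate 1.

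Genes of proteins that cut or resemble the binding proteins were detected in part. Pappa, the gene of PAPP-A, stayed below 1 TPM, at 0.30 TPM in replicate 2 against 0.43 TPM in replicate 1. Of 7 carriers, proteases and stanniocalcins, 2 reached 1 TPM in both libraries, Htra1, a serine protease that cleaves IGFBPs, at 20.8 TPM in replicate 2 against 21.7 TPM in replicate 1, and Ide, which degrades insulin, at 21.9 and 20.5 TPM. Of 10 genes of other proteins with an IGFBP domain 6 did so. Htra3, a protease, led these at 13.4 TPM in replicate 2 against 13.2 TPM in replicate 1, before the matrix protein gene Ccn2 at 9.38 and 12.0 TPM and Crim1 at 9.90 and 8.36 TPM. None of the 7 whose mean reached 1 TPM lay over 2-fold apart, beside 5.89% of all genes at that mean.

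Signalling genes downstream of the receptors were detected in both libraries, with Irs4 the exception. All 21 genes of the PI3K, AKT and mTOR arm reached 1 TPM in both libraries. None was over 2-fold apart, beside 5.89% of all genes whose mean reached 1 TPM. The kinase genes Akt1 and Akt2 stood at 66.0 ± 0.269 and 60.6 ± 11.4 TPM, and Eif4ebp1, a translation repressor controlled by mTOR, at 29.6 ± 2.45 TPM (SD, n = 2). Of 9 adaptors and phosphatases 8 were detected, led by Grb10, an imprinted inhibitor of both receptors, at 41.1 ± 1.36 TPM, the phosphatase gene Ptpn11 at 29.3 ± 3.68 and the adaptor gene Grb2 at 28.3 ± 0.792. All 6 genes of the growth hormone arm were detected. Ghr, the growth hormone receptor gene, was at 30.3 TPM in replicate 2 against 16.4 TPM in replicate 1, a 1.84-fold ratio in the direction of the hepatocyte markers, whose part was not tested, and Stat5b, which relays its signal to Igf1, at 20.1 TPM in replicate 2 against 19.4 TPM in replicate 1. The Igf2 mRNA-binding protein genes were low, with Igf2bp2 at 3.45 and 5.42 TPM, Igf2bp1 at 1.36 and 2.25 TPM and Igf2bp3 at 0.76 and 0.82 TPM in replicates 2 and 1.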

How the data were processed

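Total RNA of 2 adrenal gland libraries of 1 group was analysed. Expected counts, TPM (also as a posterior mean) and credibility bounds (a signal with no fixed sum) per gene and transcript were deposited by the authors under RSEM's column names, per the file headers, quantified against mm10 with GENCODE M21, per the deposited file list. Estimated counts and TPM of a second quantification carry kallisto's column names, per the file headers, and were summed here to genes. The deposited percent of each gene on each transcript was recomputed from TPM. Effective length in bases is another deposited column. For the aligner, the tool versions and the strand setting of the counting, the answer is not given in the sources used here. Reads of CAST origin were matched to mm10 sequence, with no measure of its effect.

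Members were taken by symbol. The members and lists were chosen with earlier results of these data known. All 10 members were named; of each pathway list the 3 most abundant genes, those over 2-fold apart at a mean of at least 1 TPM and all genes of lists of up to 3; of marker lists the sums, with up to 2 leading genes. Beyond these rules Pappa was named, as the gene of the protease PAPP-A. Detection meant at least 1 TPM in both libraries. Neighbours in the order of levels were called apart where the libraries' ranges did not overlap and the log2 ratio exceeded its SD. The counting interval of a ratio is the 95% exact binomial interval of the expected counts, rounded and rescaled to TPM. Transcripts named held at least 10% of their gene in a library. With 1 group no test was made. Sequences came from GENCODE M21 transcripts and RefSeq promoters. TMM factors (edgeR 4.0.16) and size factors (DESeq2 1.42.0) in R 4.3.3 used RSEM expected counts rounded to whole numbers. The remaining steps ran in Python 3.11.15 (scipy 1.17.1, numpy 2.4.6, pandas 2.3.3, matplotlib 3.10.9). The steps tested on simulated data were the fold between libraries and the TMM and DESeq2 scaling. The depth of 36260745 and 32963248 expected counts in replicates 2 and 1 leaves genes with few counts, such as Igfbp1 in replicate 1, imprecise. Alternatives were kallisto, posterior means, other scalings, a pseudocount, level minimums and each library alone.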

Additional observations from a re-analysis of the deposited data

How the results depend on the processing

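The summed level of the 7 binding protein genes, 333.4 TPM, was 535.1 TPM with kallisto and 1207 TPM when TPM was rescaled to nuclear protein-coding genes; kallisto values of all genes were a median 1.52-fold above RSEM, and over this ratio the sum was 352.0 TPM. In single libraries it ranged from 315.1 to 351.7 TPM, the Igfbp7 share from 62.9 to 71.4%, the log2 ratio of Igfbp1 to Igfbp6 over Igf1 from 2.11 to 3.85 and that of Igf1r over Insr from -0.63 to -0.60. This last ratio, -0.61, was -0.46 with kallisto, -0.43 over protein-coding transcripts and 0.049 between Igf1r-201 and Insr-201, where the direction turned with RSEM and the libraries disagreed with kallisto (0.024 in replicate 2, -0.010 in replicate 1); the transcript and median-ratio alternatives and a fold limit of 1.5 were chosen after seeing the data. The count of genes over 2-fold apart, 3, was 2 with a mean of at least 5 TPM, where 2.75% of all genes were, and 4 with TMM (5.67% of all genes), DESeq2 size factors (5.66%) or the 1.5-fold limit (11%), Igfbp4 being added (2.12-fold by both scalings). Igf1 ranged from 2.86-fold to 4.58-fold over 5 alternatives, Igfbp2 from 4.90 to 7.12 and Igfbp1 from 3.43 to 6.32, the lowest of Igfbp1 with a pseudocount of 1 TPM. Of 50 alternative log2 ratios of single genes 20 lay outside the gene's counting interval, so these intervals do not cover the choice of processing. Igf1 was at 3.17-fold with TMM, 3.17 with DESeq2 size factors and 2.86 with the spike-ins, below its interval of 4.51 to 5.22. With kallisto it was inside, at 4.58. Of the 50 ratios 4 changed sign, Igfbp7 to 0.04 with TMM and 0.05 with DESeq2 size factors and Igfbp6 to 0.02 with each. Of 50 alternative levels of single genes 11 moved by at least 1 SD. With kallisto 6 neighbouring pairs in the order of levels were not apart, in place of 7, and Igf1 came 4th and Igf1r 6th. No paired analysis was possible because there is only 1 group. Depth limits Igfbp1 and Igfbp2 in replicate 1, at 44 and 92 counts, and the short transcripts of Igf1 and Insr.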
